A study of Homo sapiens with 11 samples.

Results

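TSC22D3, DUSP1, NFKBIA and TNFAIP3 are 4 genes through which glucocorticoids restrain inflammation, and the listed chromatin binding sites around them were followed here in HEK293 cells, a human embryonic kidney line. Members were chosen by position alone: every listed site of the glucocorticoid receptor (GR) or of SUMO-2/3, a pair of small ubiquitin-like proteins detected with a single antibody, that shared at least 1 bp with a fixed window around a gene, on the hg19 build. The windows were chrX:106857000-107120000 for TSC22D3 (263 kb), chr5:172098000-172298000 for DUSP1, chr14:35774000-35974000 for NFKBIA and chr6:138088000-138288000 for TNFAIP3. They held 126 of the 51024 sites listed over 5 groups, and no window was empty in any group.

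ChIP-seq, the sequencing of DNA recovered with an antibody, had been done on isogenic Flp-In lines, in which a transgene is inserted at a single prepared FRT site. All groups had spent 72 h in steroid-depleted medium and received the synthetic glucocorticoid dexamethasone at 100 nM for 1 h, so no group was without hormone. The wild-type line stably expressed wild-type GR and the 3KR line a GR that the labels call SUMOylation-defective, each with 2 GR and 2 SUMO-2/3 libraries. The control line (FRT) carried no GR transgene and gave 1 GR library; its input and IgG libraries were not analysed here. Each line is 1 cell population, and beyond the word duplicates nothing in the labels says that libraries came from separate cultures, so p-values measure only the spread between these libraries. The promoter that drives the transgenes is not given in the sources used here.

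Ligand-bound GR enters the nucleus and binds DNA, often far from the gene it regulates. Among its classical induced targets, TSC22D3 encodes GILZ, a leucine zipper protein that restrains NF-κB and AP-1. DUSP1 encodes a phosphatase that switches off MAP kinases, NFKBIA encodes IκBα, which holds NF-κB in the cytoplasm, and TNFAIP3 encodes A20, a ubiquitin-editing enzyme that dampens NF-κB signalling. NFKBIA and TNFAIP3 are themselves induced by NF-κB, which makes them negative feedback genes. SUMO-2/3 attached to transcription factors and chromatin proteins is known mostly for restraining transcription, and GR itself is a SUMO substrate.

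The promoters of the 4 genes are shown with an NF-κB type motif marked, since NFKBIA and TNFAIP3 are also induced by NF-κB. Each is the 250 bases before a RefSeq transcript start (build GRCh38.p14), 5′ to 3′ on the gene's strand, with capitals marking every match of the NF-κB type motif (GGG, then any 5 bases, then CC) on either strand. TSC22D3 has 4 start regions in that table, of which the outermost and an inner start are printed. The places are chr14:35404750-35404999 (minus strand) for NFKBIA, chr6:137867009-137867258 (plus strand) for TNFAIP3, chr5:172771196-172771445 (minus strand) for DUSP1, and chrX:107775989-107776238 and chrX:107717063-107717312 (minus strand) for the outer and inner TSC22D3 starts.
NFKBIA: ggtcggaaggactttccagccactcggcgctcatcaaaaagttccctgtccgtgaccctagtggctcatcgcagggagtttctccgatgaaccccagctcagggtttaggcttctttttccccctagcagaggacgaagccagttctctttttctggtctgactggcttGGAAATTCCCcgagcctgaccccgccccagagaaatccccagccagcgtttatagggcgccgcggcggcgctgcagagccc
TNFAIP3: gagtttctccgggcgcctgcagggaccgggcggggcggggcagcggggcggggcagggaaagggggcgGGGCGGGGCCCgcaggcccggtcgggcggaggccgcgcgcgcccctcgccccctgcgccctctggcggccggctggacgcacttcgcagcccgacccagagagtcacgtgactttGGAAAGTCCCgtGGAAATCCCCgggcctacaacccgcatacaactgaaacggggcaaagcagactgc
DUSP1: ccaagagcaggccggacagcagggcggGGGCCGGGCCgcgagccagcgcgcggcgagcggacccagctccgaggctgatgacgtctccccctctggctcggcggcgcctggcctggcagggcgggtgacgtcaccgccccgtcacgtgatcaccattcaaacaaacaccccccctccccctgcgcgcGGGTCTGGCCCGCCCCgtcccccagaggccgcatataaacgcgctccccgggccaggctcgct
TSC22D3 outer start: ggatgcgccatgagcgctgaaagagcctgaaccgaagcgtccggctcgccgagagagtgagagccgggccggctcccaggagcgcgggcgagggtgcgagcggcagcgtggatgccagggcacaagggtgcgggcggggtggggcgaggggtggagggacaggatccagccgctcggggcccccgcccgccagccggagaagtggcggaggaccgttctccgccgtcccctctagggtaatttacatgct
TSC22D3 inner start: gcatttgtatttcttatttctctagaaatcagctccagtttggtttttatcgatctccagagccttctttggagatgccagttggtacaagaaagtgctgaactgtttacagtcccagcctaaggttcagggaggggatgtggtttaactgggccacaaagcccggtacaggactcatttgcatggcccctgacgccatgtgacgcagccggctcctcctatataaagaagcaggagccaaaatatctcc

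The motif matched 1 time before the NFKBIA start and 4 times each before the TNFAIP3 and DUSP1 starts, overlapping matches included, and 0 times before the printed TSC22D3 starts. The other TSC22D3 start regions, not printed, had 1 and 2 matches. It is a loose pattern, present in 54.4% of all 35116 promoters of the table. The GR element (AGAACA, any 3 bases, TGTTCT) with up to 2 mismatches on either strand, and its single arm AGAACA, had 0 matches in all 7 start regions of the 4 genes, against 1.18% and 12.4% of all promoters. Matches are letters only, and the windows of the binding data are on the older build, so promoters and sites were not joined by position. No hg19 annotation was used here: sites are placed by the distance of their centre from the window midpoint, without an exon or intron.

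A site is a stretch that the authors listed, and its fold enrichment is the authors' deposited ratio over the peak caller's background. In the duplicate groups a site was read here as the part shared by a peak of both libraries. How the libraries came to hold the same positions is not given in the sources used here. Wild-type GR had 33 sites in the windows (of 11259 listed) and 3KR GR 42 (of 18856). The control line had 11 GR sites there, of 1016. For SUMO-2/3 the wild-type line had 24 sites (of 12109) and the 3KR line 16 (of 7784). The windows span 863 kb, or 0.0285% of the genome extent of the lists, while they held 0.293% of wild-type GR, 1.08% of control-line GR and 0.198% of wild-type SUMO-2/3 sites. Merging overlapping sites of all lists left 46 regions: 20 had both GR and SUMO-2/3, 22 had GR without SUMO-2/3, and 4 had SUMO-2/3 without GR. GR regions were mostly common to both transgene lines (29), while 2 were confined to the wild-type and 11 to the 3KR lists. SUMO-2/3 regions were common to both lines in 15 cases, with 8 confined to wild-type and 1 to 3KR cells. Regions were merged in the windows only, so these region counts have no share over the whole lists beside them. Such shares are given below for sites.

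**Figure D1:**
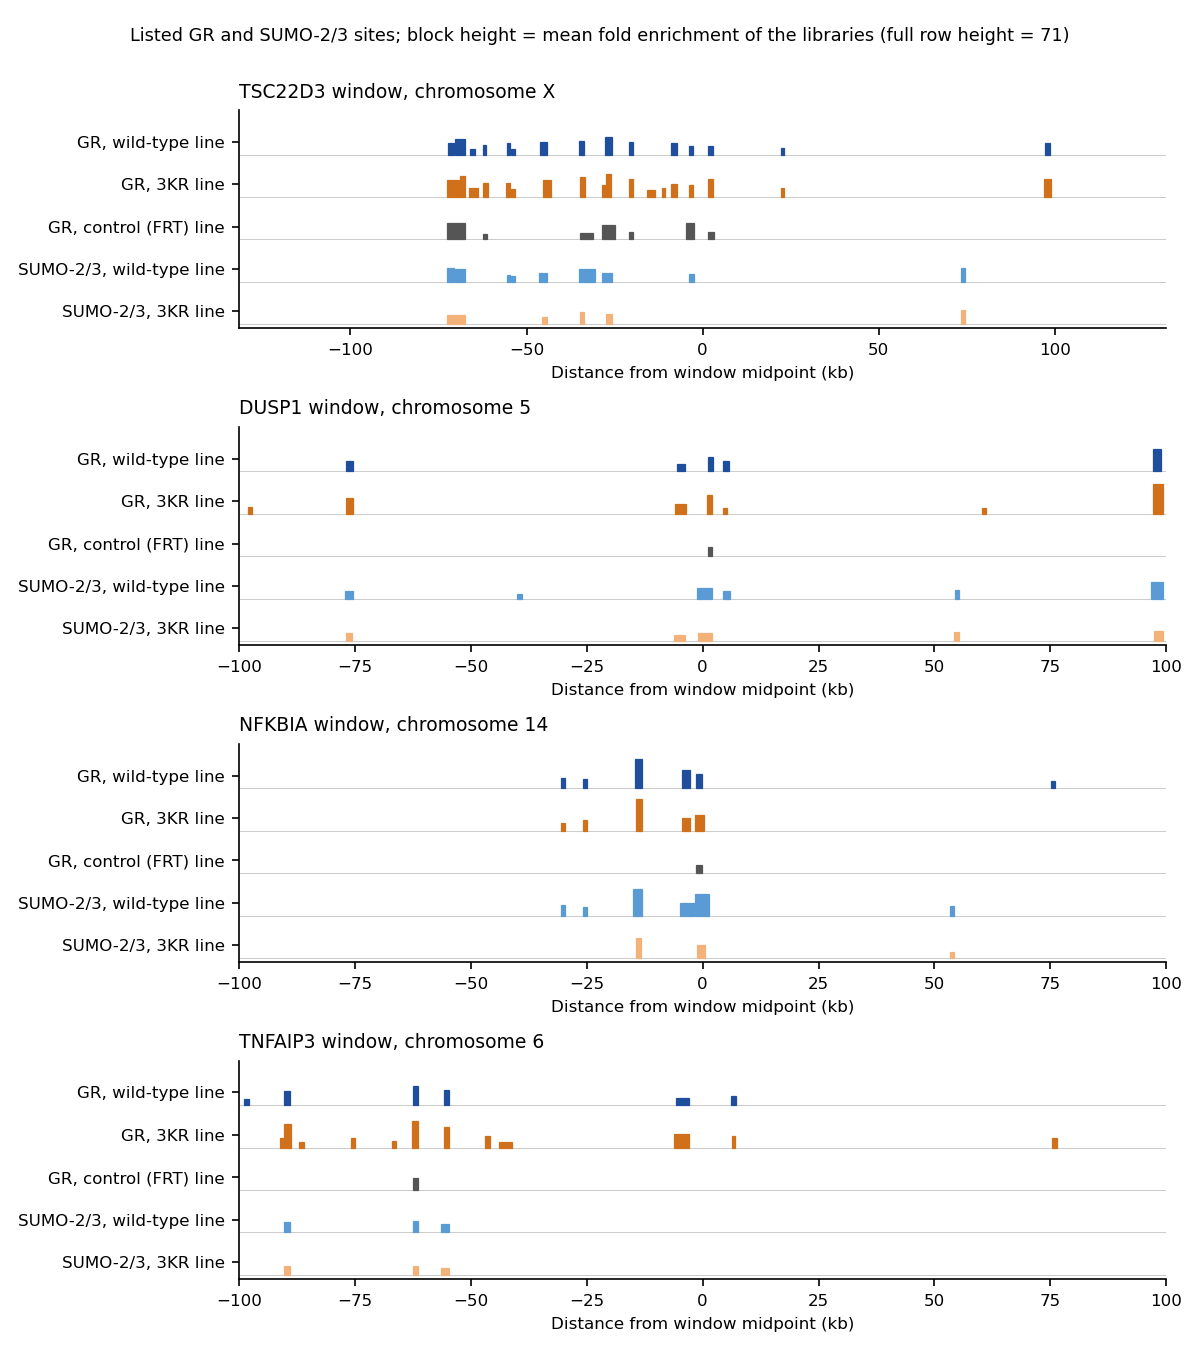
Sites of the 5 groups in each window, by distance from the window midpoint (kb); block height is the mean deposited fold enrichment of the group's libraries. TSC22D3 carries a row of 15 wild-type GR sites mostly below the midpoint, NFKBIA its tallest GR and SUMO-2/3 blocks near −14 kb, and TNFAIP3 has 7 GR sites seen in the 3KR line only.

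GR occupancy in the windows lay largely where both transgene lines and often SUMO-2/3 were listed. Of the 33 wild-type GR sites, 31 overlapped a 3KR site (88.9% of the whole wild-type list did), and 30 of 42 3KR sites overlapped a wild-type site (53% of the whole list). SUMO-2/3 of the same line overlapped 20 of 33 wild-type GR sites (37.4% of the list) and 14 of 42 3KR GR sites (15.6%). Seen from SUMO-2/3, 20 of 24 wild-type sites overlapped GR (34.3% of the list) and 13 of 16 3KR sites did (37.6%). All 11 control-line sites overlapped a GR site of both lines (82% of the whole control list overlapped wild-type GR and 87.7% 3KR GR). Conversely, 11 wild-type sites (7.49% of the list) and 12 3KR sites (4.79%) had a control-line counterpart. Of those control-line sites, 8 overlapped wild-type SUMO-2/3 (42.9% of the list) and 7 overlapped 3KR SUMO-2/3 (33.5%). Of the 24 wild-type SUMO-2/3 sites, 16 overlapped a 3KR SUMO-2/3 site (47.7% of the list), and 15 of 16 3KR ones had a wild-type counterpart (74.7%). These are counts of 1 list per group, with no replicate error and no test.

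TSC22D3 had the most GR sites per Mb of the 4 windows in all 3 lines, with TNFAIP3 close behind in the 3KR line. It held 15 wild-type, 18 3KR and 8 control-line GR sites, and 9 wild-type and 5 3KR SUMO-2/3 sites. Wild-type GR reached 57.0 sites per Mb, against 3.71 over the whole list and 1.80 on chromosome X, and 3KR GR 68.4 against 6.22. In the control line the density was 30.4 per Mb against 0.335, 90.8 times the list's mean: 8 of the 22 control-line sites of chromosome X lay in this window. The nearest other control-line sites lay 34923.2 kb below and 2549.6 kb above it. Some wide library peaks back several sites: the 15 wild-type sites came from 15 distinct peaks in library 1 and 13 in library 2, so their values are not all independent.

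The best ranked wild-type GR site of TSC22D3 lay at chrX:106960885-106962700, −26.7 kb from the midpoint, at rank 1039. Its fold enrichment was 35.41 and 22.60 in the wild-type libraries, 47.94 and 28.85 in the 3KR libraries and 24.13 in the control line. The line without a GR transgene was thus above the lower wild-type library at this site, which was listed in all 5 groups. In wild-type library 2 the value belongs to a peak of 9172 bp that also covers the site at −34.3 kb, whereas the library 1 peak spans 1817 bp.

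In the control line the strongest TSC22D3 sites lay at −68.6 kb (fold 28.07), −71.1 kb (27.99) and −3.7 kb (27.30). At the last of these, wild-type GR (chrX:106984663-106985681) had 14.87 and 14.63 and 3KR GR 20.97 and 17.45, so the single control-line value was above all 4 transgene-line values. The control-line peak there was wider, at 2346 bp against 1019 and 1381 bp in the wild-type libraries. At −61.9, −33.0, −20.4 and +2.3 kb the control line had folds of 9.72, 9.81, 11.56 and 12.84, each below every library of both transgene lines at the site it overlapped. With 1 library and its own background, the control line allows no test of these differences.

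SUMO-2/3 at TSC22D3 followed part of the GR row. The best ranked wild-type site lay at chrX:106915940-106918011 (−71.5 kb), with folds of 19.20 and 26.82. The 3KR line had 11.32 and 18.43 in a site that runs over this one and its neighbour at −68.9 kb. The best ranked 3KR site was another, at +73.9 kb (chrX:107061877-107062968), with 21.31 and 24.93, and 19.23 and 25.80 in the wild-type line. No GR site was listed there in any line, and it is the strongest SUMO-2/3 site without GR of the 4 windows in both lines by mean fold.

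At TSC22D3, 6 of 9 wild-type SUMO-2/3 sites had a 3KR counterpart (47.7% of the whole list), and 15 of 18 3KR GR sites a wild-type one (53%). Only in the wild-type list did SUMO-2/3 appear at −55.1 kb (9.70 and 12.03), −54.0 kb (9.70 and 8.59) and −3.2 kb (10.19 and 15.07), each over a GR site of both lines. GR sites of the 3KR line without a wild-type counterpart lay at −28.1 kb (10.39 and 28.85), −14.8 kb (13.22 and 8.35) and −11.0 kb (13.01 and 15.92). The first of these was also covered by a control-line site; it lies beside the best ranked site and takes its library 2 value from the same peak. All 15 wild-type GR sites had a 3KR counterpart (88.9% of the whole list).

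At DUSP1, GR was listed at 5 wild-type, 7 3KR and 1 control-line site, and SUMO-2/3 at 6 and 5. The best ranked GR site, rank 412 in the wild-type list, was distal, at chr5:172295205-172296830 (+98.0 kb). Its folds were 33.85 and 40.76 in wild-type against 48.87 and 49.82 in 3KR cells, and it was not listed in the control line. It ended 1.2 kb inside the window's edge, and the next wild-type GR site lay 4.6 kb outside it with folds of 14.07 and 14.72. SUMO-2/3 had its best ranked DUSP1 site over it in both lines, with 21.76 and 35.26 in the wild-type line (chr5:172294805-172297329) and 12.64 and 21.43 in the 3KR line. RefSeq on GRCh38.p14 places NEURL1B and ERGIC1 within 100 kb of DUSP1, and sites were not assigned to genes here.

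Next to the DUSP1 midpoint lay a site listed in all 5 groups. This GR site (chr5:172199174-172200145, +1.7 kb) had folds of 19.04 and 27.72 in wild-type cells, 30.41 and 32.77 in 3KR cells and 15.91 in the control line. It was the only control-line GR site of the window. SUMO-2/3 over it covered a wider stretch, chr5:172196770-172200088, with 14.67 and 19.75 in wild-type against 10.33 and 15.50 in 3KR cells.

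The DUSP1 site at +5.0 kb (chr5:172202330-172203741) had GR listed in both lines, with lower folds in the 3KR line. Wild-type GR had 145 and 308 tags and folds of 16.80 and 17.94, whereas 3KR GR had 113 and 88 tags and folds of 9.39 and 9.66. Both 3KR libraries were therefore below both wild-type libraries. A SUMO-2/3 site lay there in the wild-type list only, with 10.09 and 15.65. The own peaks of the libraries were 1441 and 2076 bp long for wild-type and 1365 and 862 bp for 3KR GR, so tags and folds were not taken over 1 common stretch.

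Other DUSP1 sites of a single line were weak. SUMO-2/3 in the wild-type line only was also listed at −39.6 kb (8.29 and 8.68), without GR, and in the 3KR line only at −4.9 kb (9.63 and 10.44), over a GR site of both lines. That was the sole SUMO-2/3 site of the 4 windows confined to the 3KR list. GR in the 3KR line only was listed at −97.7 kb (16.17 and 8.02) and +60.7 kb (9.97 and 9.45), both without SUMO-2/3.

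NFKBIA had the strongest single site for both antibodies. The GR site at chr14:35859451-35860872 (−13.8 kb) had folds of 53.79 and 44.91 in the wild-type line, rank 56 or the top 0.497% of the list, and 53.77 and 52.09 in the 3KR line (rank 199). In each of the 4 GR libraries of the transgene lines it was above the best ranked site of the other 3 windows, whose order changed from library to library. SUMO-2/3 at the same place (chr14:35858931-35860930) had 39.96 and 48.46 in the wild-type line, rank 109, and 31.89 and 36.18 in the 3KR line, rank 227. The control line listed no GR site there, although weaker sites of other windows were listed in it.

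The single control-line GR site of the NFKBIA window lay beside the midpoint, with a fold of 13.94. Wild-type GR at this place (chr14:35872522-35873781, −0.8 kb) had 17.14 and 31.26 and 3KR GR 18.25 and 35.29. SUMO-2/3 there (chr14:35872270-35875384) had 28.82 and 41.63 in wild-type against 15.29 and 28.51 in 3KR cells. Peaks of wild-type GR library 2 and wild-type SUMO-2/3 library 1 ran on over the site at −3.5 kb, which repeats their values.

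At 3 NFKBIA sites GR was listed in both lines and SUMO-2/3 in the wild-type line only. The site at −3.5 kb (chr14:35869555-35871345) had GR folds of 29.72 and 31.26 in wild-type against 26.99 and 16.19 in 3KR cells, with wild-type SUMO-2/3 at 28.82 and 13.25. At −30.2 kb (chr14:35843370-35844263) GR had 17.68 and 18.10 against 12.44 and 14.49, with SUMO-2/3 at 15.18 and 20.05. At −25.3 kb (chr14:35848225-35849086) GR had 18.69 and 12.83 against 23.04 and 13.71, with SUMO-2/3 at 11.96 and 15.85. At the first pair of sites all 3KR folds were below all wild-type folds, while at −25.3 kb the lines overlapped. The window also had GR in the wild-type line only at +75.6 kb (14.38 and 8.88) and SUMO-2/3 without GR at +53.8 kb, with 12.17 and 18.57 in wild-type against 8.92 and 9.81 in 3KR cells.

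TNFAIP3 had its strong binding distal, on the low side of the window. The best ranked wild-type GR site (chr6:138125498-138126501, −62.0 kb, rank 1038) had folds of 41.89 and 21.15 in wild-type cells, 52.09 and 35.72 in 3KR cells and 20.36 in the control line. It was the only control-line site of the window and was listed in all 5 groups, with SUMO-2/3 at 16.68 and 19.93 in wild-type against 11.33 and 18.76 in 3KR cells. This was also the best ranked wild-type SUMO-2/3 site, whereas the best ranked 3KR one lay at −89.7 kb, with 13.52 and 17.53. SUMO-2/3 was listed at 3 TNFAIP3 sites of each line, the third near −55.7 kb, and all 3 lay over GR sites of both lines. RefSeq lists no protein-coding gene but the long non-coding RNAs WAKMAR2, SIMALR and LINC02865 within 100 kb of TNFAIP3 on GRCh38.p14.

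Near the TNFAIP3 midpoint, GR was weaker and had no SUMO-2/3. At −5.1 kb the wild-type folds were 13.78 and 10.65, at −3.7 kb 12.57 and 10.65 from the same library 2 peak, and at +6.7 kb 17.61 and 13.32. A single 3KR site covered the first pair, with 29.13 and 15.33. The control line listed no site within 50 kb of this midpoint.

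Of the 12 3KR GR sites at TNFAIP3, 5 (41.7%) had a wild-type counterpart, against 53% of the whole list, and 7 had none. The 7 lay at −90.9 kb (20.34 and 12.29), −86.6 kb (9.75 and 9.08), −75.5 kb (17.14 and 13.80), −66.7 kb (11.63 and 8.88), −46.5 kb (20.60 and 19.42), −42.6 kb (8.80 and 9.15) and +76.0 kb (20.65 and 12.50). The one at −90.9 kb ended at position 138097517, close to the wild-type GR site that starts at 138097663. None of the 7 overlapped SUMO-2/3 in either line, and the best ranked of them, at −46.5 kb, stood at rank 6373 of 18856. Across the 4 windows 1 of the 12 3KR GR sites without a wild-type counterpart overlapped SUMO-2/3, that of the wild-type line, at TSC22D3. Over the whole list, 93% of such sites overlapped none in either line. When sites within 500 bp of each other counted as overlapping, 10 3KR GR sites of the 4 windows lacked a wild-type counterpart, in place of 12. The reverse case, GR in the wild-type line only, occurred at TNFAIP3 at −98.4 kb (11.30 and 9.44).

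The fold enrichments of all 31 shared GR sites show how far duplicates differed. Wild-type library 2 had a median ratio to library 1 of 0.832 over its whole list, and 3KR library 2 one of 0.686, so most 3KR pairs span a wide range with library 1 on top.

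**Figure D2:**
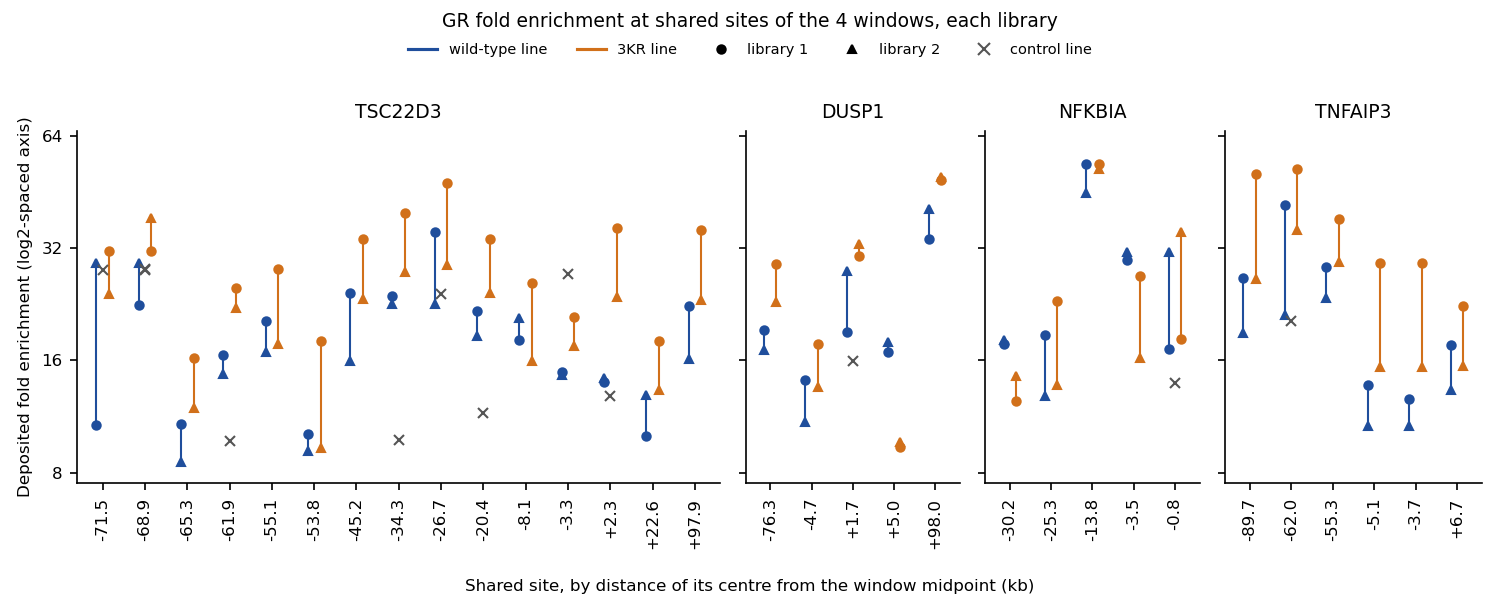
Deposited GR fold enrichment (log2-spaced axis) at each of the 31 shared GR sites, by distance from the window midpoint; circles and triangles are libraries 1 and 2, lines join duplicates and crosses are the control line. The DUSP1 site at +5.0 kb, the NFKBIA site at −30.2 kb and the one at −3.5 kb have both 3KR values below both wild-type values, and the NFKBIA site at −13.8 kb is the highest of all.

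The question that the 2 lines pose is whether GR and SUMO-2/3 occupancy differs with a receptor that is SUMOylation-defective. Fold enrichment at sites shared by both lines was compared on the log2 scale, with each library centred on its median over all shared sites, by limma's moderated test with Benjamini-Hochberg adjustment at 0.05 over 10006 GR or 5780 SUMO-2/3 sites. Without centring, the median 3KR-minus-wild-type difference over all sites was 0.46 for GR and −0.15 for SUMO-2/3. All differences below are relative to the libraries' own medians. After this centring the median difference over all sites was −0.085 for GR and 0.051 for SUMO-2/3. An exact permutation test of 2 against 2 libraries cannot go below 0.333 and was not informative for single sites.

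Of the 31 shared GR sites, 1 was lower in the 3KR line by this test (0.44% of all shared sites were) and 0 were higher (0.16%). An unadjusted p under 0.05 was found at 3 of the 31, and at 1805 of all 10006. On tags, edgeR's quasi-likelihood test called 0 of the 31 and 0 of all. DESeq2 called 1 higher and 2 lower, against 754 higher and 837 lower among the 9812 sites it tested. The 1 site called by limma was the DUSP1 site at +5.0 kb, singled out after its values were seen. Its difference was −1.41 (SE 0.27, 95% interval −1.997 to −0.82; limma adjusted p = 0.0486), the 15th most negative of 10006. The call was lost without wild-type library 1 (adjusted p = 0.298), wild-type library 2 (0.318) or 3KR library 1 (0.0954), and with edgeR's quasi-likelihood test on tags (0.0654), while the sign held in 12 of 12 alternatives. Per base of each library's own peak the difference was −0.77 (limma adjusted p = 0.165). The call was also lost with limma on tags (adjusted p = 0.0527) and with reciprocal overlap of 50 percent (limma, 0.0649). It held with DESeq2 on tags (adjusted p = 2.4e-06) and with limma and the replicate number as a block (8.3e-10).

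At DUSP1 and at NFKBIA all 5 shared GR sites of the window had a negative difference, while 41.5% of all shared GR sites were positive. On tags the DUSP1 site at −4.7 kb turned positive, at 0.049 with limma and 0.070 with edgeR and DESeq2. At NFKBIA none passed by limma with all libraries and no block. The site at −3.5 kb had −1.08 (SE 0.23, limma adjusted p = 0.0613) and the site at −30.2 kb −0.95 (SE 0.29, adjusted p = 0.125). The best ranked site had −0.43 (SE 0.25, adjusted p = 0.394). With the replicate number as a block, limma called the sites at −3.5 kb (adjusted p = 4.2e-06) and −30.2 kb (7.1e-05). Chromosome 14 as a whole leaned the same way, with a median difference of −0.37 over its 450 shared GR sites. Centred on chromosome 14 instead, the differences in the same order were −0.76 (limma adjusted p = 0.154), −0.63 (0.298) and −0.11 (0.859). The library left out decided some calls. Without 3KR library 2 the site at −30.2 kb had −1.37 (limma adjusted p = 0.0152) and the site at −0.8 kb −1.19 (limma adjusted p = 0.0472). Without 3KR library 1 they had −0.54 and 0.37, and the second one had −0.41 with all libraries (limma adjusted p = 0.666). On tags, DESeq2 called the best ranked site lower, at −0.52 (adjusted p = 0.0459).

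The best ranked sites of the other windows differed little between the lines relative to their error. The difference was −0.13 at DUSP1 (95% interval −0.74 to 0.48), −0.15 at TSC22D3 (−0.67 to 0.38) and −0.01 at TNFAIP3 (−0.60 to 0.59). The sign of each turned under some alternatives. TSC22D3 also held the highest difference of the windows, 0.50 at +2.3 kb (SE 0.23; limma adjusted p = 0.278; 0.0173 by DESeq2 on tags, the 1 call of a higher value), where wild-type folds were 14.04 and 14.34, 3KR folds 36.18 and 23.60 and the control line 12.84. On the centred scale both 3KR libraries were above both wild-type libraries at 3 of 31 sites (20.2% of all shared sites) and below at 10 (30% of all). Among the 3, the TNFAIP3 sites at −5.1 and −3.7 kb were paired with the same 3KR site, so they are not independent. The members' median was −0.10, against −0.09 over all shared sites, and 7 of 31 were positive (41.5% of all). On tags 15 of 31 were positive with each of limma, edgeR and DESeq2 (47.9%, 49.2% and 49.6% of all). On folds 18 were positive without 3KR library 1 (44.6% of all) and 6 without 3KR library 2 (41.1%).

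**Figure D3:**
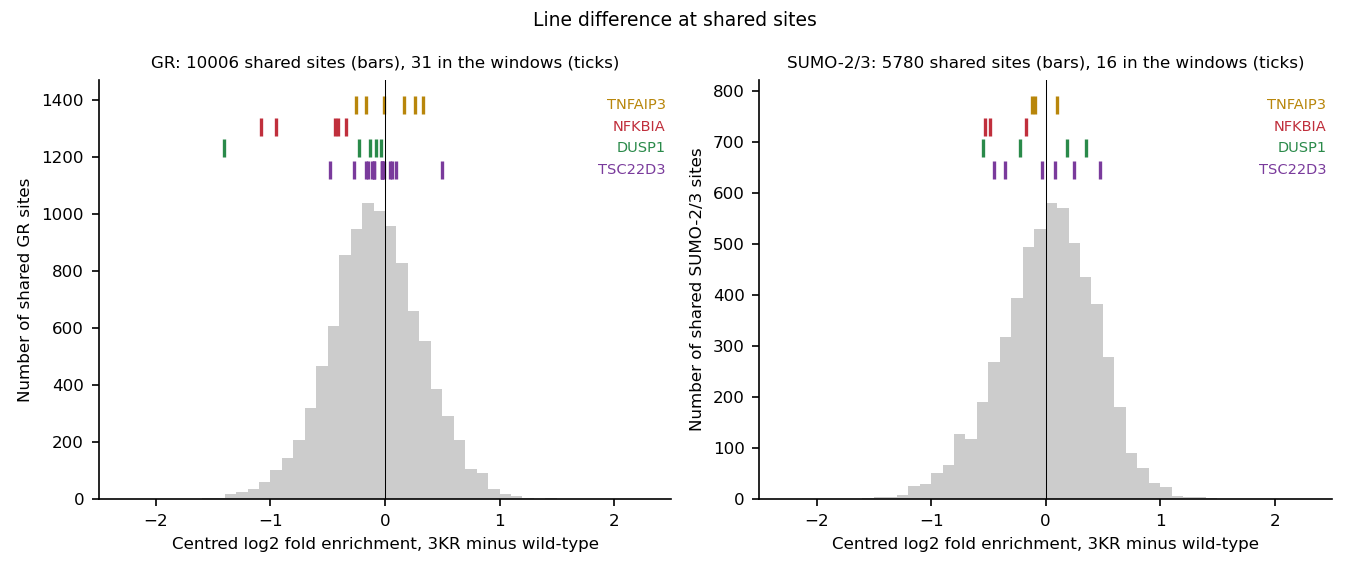
Centred log2 difference in fold enrichment, 3KR minus wild-type, for GR (left) and SUMO-2/3 (right); bars count all shared sites and ticks mark the sites in each window. NFKBIA ticks lie below 0 for both antibodies. DUSP1 ticks lie below 0 for GR, the lowest at −1.41, and on both sides of 0 for SUMO-2/3. TSC22D3 and TNFAIP3 ticks lie on both sides of 0 for both antibodies.

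Of the 16 shared SUMO-2/3 sites 0 were higher (3.18% of all shared sites were) and 0 lower (4.91%) in the 3KR line by limma. An unadjusted p under 0.05 was found at 4 of the 16, and at 1601 of all 5780. On tags edgeR's quasi-likelihood test called 0 of the 16, against 8 higher and 26 lower of all. DESeq2 called 1, lower, against 389 higher and 476 lower of all. The lowest difference was that of the DUSP1 site at +98.1 kb, −0.55 (95% interval −0.97 to −0.12; limma adjusted p = 0.0983), and it was −0.64 without 3KR library 2 (limma adjusted p = 0.0476). The NFKBIA site at the midpoint had −0.53 (−0.96 to −0.10; adjusted p = 0.112), beside a median of −0.24 for chromosome 14, and −0.14 when centred on that chromosome. This was the site DESeq2 called on tags (−1.13, adjusted p = 0.0058), and limma called it without 3KR library 2 (−0.69, adjusted p = 0.0309). The highest was the TSC22D3 site over the best ranked GR site, 0.47 (−0.01 to 0.96; limma adjusted p = 0.191), where wild-type folds were 10.49 and 17.83 and 3KR folds 11.41 and 23.82. The last value belongs to a peak of 9108 bp that also gives the site at −34.2 kb its library 2 value. Without 3KR library 2 the difference was 0.23, and without 3KR library 1 it was 0.72 (limma adjusted p = 0.0348). On the centred scale the 3KR libraries were both above at 5 of 16 sites (29.8% of all shared sites) and both below at 6 (26.6%). Among the 6, the TSC22D3 sites at −71.5 and −68.9 kb were paired with the same 3KR site, so they are not independent. The median was −0.11 against 0.05 over all, with 6 of 16 positive (54.5% of all). With limma on tags it was 0.14 against 0.062 over all, with 10 of 16 positive (55.5% of all). On tags edgeR and DESeq2 each had 9 positive (49.7% and 50.9% of all). Per own peak length limma also had 9 (51.6% of all).

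**Figure D4:**
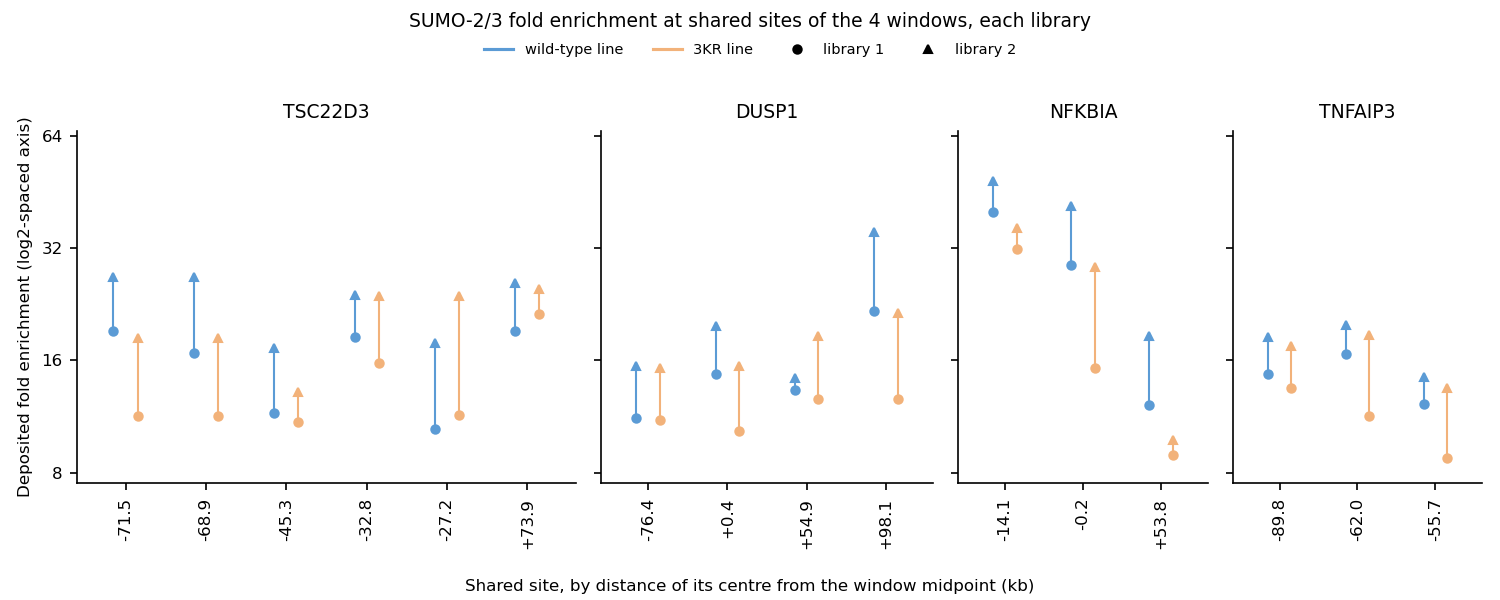
Deposited SUMO-2/3 fold enrichment (log2-spaced axis) at the 16 shared SUMO-2/3 sites, by distance from the window midpoint; circles and triangles are libraries 1 and 2 and lines join duplicates. Library 2 is above library 1 at every site shown, and the highest values in each line are those of NFKBIA at −14.1 kb.

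The 2 antibodies were also set against each other in 1 fit, added after seeing the data, at the 2007 sites listed for both in both lines. Whether the line difference of GR differed from that of SUMO-2/3 was called at 0 of these sites (0%; 210 had an unadjusted p under 0.05 by limma, and tags in place of folds also gave 0), and so at 0 of the 13 in the windows. In the lists themselves, of the 31 shared wild-type GR sites, 13 (41.9%) had SUMO-2/3 in both lines, against 20.1% of all shared GR sites, and 10 (32.3%) in neither, against 54.9%. The shares with it in a single line were near those of all shared GR sites: 7 (22.6%) in the wild-type line only, against 20.1%, and 1 (3.23%) in the 3KR line only, against 4.96%. The 7 were the 3 at TSC22D3, the 3 at NFKBIA and the +5.0 kb site of DUSP1. Not being listed is no measure of absence, since every listed peak had more than 50 tags and a fold above 8.

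GR and SUMO-2/3 summits coincided closely where both could be placed. A summit could be put on the genome only when the site equalled a library's own peak, which held for both antibodies in 3 of 20 wild-type pairs (distances of 5 to 18 bp, median 5) and in 5 of 14 3KR pairs (3 to 114 bp, median 20). The medians over the whole lists were 19.5 and 24 bp.

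The pattern of the best ranked sites over the 4 GR libraries was matched elsewhere in the genome. Among shared sites outside the windows with the same overlap with the other lists, likeness was the Euclidean distance in log2 fold. For NFKBIA the nearest of 1714 such sites was chr5:170865525-170867060, with wild-type folds of 53.66 and 41.95 and 3KR folds of 55.30 and 49.44 (distance 0.130). For DUSP1 it was chr17:78093428-78094100 (34.66, 40.02, 46.46 and 45.46 in the same order; distance 0.157). For TSC22D3 the nearest of 280 was chr12:66239342-66240907 (34.11, 23.21, 47.29 and 32.57; distance 0.188). For TNFAIP3 it was chr18:22841446-22842543 (41.35, 23.85, 52.95 and 35.46; distance 0.176).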

How the data were processed

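GR and SUMO-2/3 ChIP-seq libraries were grouped by their titles. Per the submitters' processing notes, CASAVA made the base calls and Bowtie 0.12.9 the alignment to hg19. Which peak caller was used, and how, is not given in the sources used here. The authors deposited, for every peak, whole tag counts that are not normalized, a fold enrichment (a ratio to the caller's background) and an FDR in percent. The p column, headed as −log10 per the file headers, repeats a ceiling, so this deposited score was not used. Both libraries of a duplicate group hold the same positions, with tags, fold, length and summit of each library's own peak. Tags in listed sites came to 1127839 at least and 4696781 at most in a duplicate library, while the control line had 208776; total depth is unknown, and no common stretch with counts in all libraries was used here.

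Sites were taken by overlap of at least 1 bp and ranked by mean fold rank. Shared sites were paired with the best overlapping site of the other line and fitted with limma 3.58.1 (R 4.3.3) on log2 fold, pseudocount 0, no filter, no replicate block; the script was tested on simulated data. Alternatives used edgeR 4.0.16, DESeq2 1.42.0 and the settings given in the closing section. Text names the best ranked GR and SUMO-2/3 site of each window and list and every site of a single line; other sites, such as those near the DUSP1, NFKBIA and TNFAIP3 midpoints and at TSC22D3 +2.3 kb, and the control-line sites, were chosen after their values were seen. The 4 genes, windows and lists were chosen with earlier results of these data known. A planned count over other glucocorticoid genes needed an hg19 annotation and was not analysed here.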

Additional observations from a re-analysis of the deposited data

How the results depend on the processing

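Within the windows, all 20 counts of listed sites by window and group stayed within 1.5 times of the main ones with an FDR of at most 5 percent, 16 with windows widened by 100 kb on each side, 12 with a fold of at least 12 and 11 with windows narrowed by 50 kb. A fold of at least 12 in every library left 15 wild-type and 7 3KR SUMO-2/3 sites, and windows narrowed by 50 kb on each side left 9 3KR SUMO-2/3 sites (at TNFAIP3, 0 SUMO-2/3 sites of either line, 0 control-line GR sites, and 4 3KR GR sites in place of 12). Widening took DUSP1 from 5 to 10 wild-type and 7 to 15 3KR GR sites, and from 6 to 12 wild-type and 5 to 9 3KR SUMO-2/3 sites. At a fold of at least 12, 11 of 24 wild-type GR sites had wild-type SUMO-2/3 and 5 of 32 3KR GR sites had 3KR SUMO-2/3. Of the 15 wild-type SUMO-2/3 sites left, 7 overlapped one of the 3KR line. At this fold 1 of 24 wild-type GR sites lacked a 3KR site and 0 of 7 3KR SUMO-2/3 sites lacked a wild-type site. With reciprocal overlap of 50 percent these last counts were 5 of 33 and 2 of 16. Shares over the whole lists were not computed under these settings, so whether the windows still exceed them is not known. Over all shared sites, GR calls numbered 60 and SUMO-2/3 calls 468 in limma without a block. GR calls became 37 when centred by chromosome, 1591 with DESeq2 on tags, 0 with edgeR's quasi-likelihood test, 0 per own peak length and 2 with reciprocal overlap, and 0 to 162 leaving out 1 library. SUMO-2/3 calls became 71 with limma on tags, 34 with edgeR, 865 with DESeq2 and 62 per own peak length, and 0 to 1068 leaving out 1 library. In the windows, GR calls became 0 with limma on tags, edgeR, peak length or reciprocal overlap and 3 with DESeq2, and were 0 to 3 leaving out 1 library; SUMO-2/3 calls became 1 with DESeq2 and were 0 to 2 leaving out 1 library. Same-numbered libraries of the lines deviated together (correlation 0.503 for GR and 0.357 for SUMO-2/3), but with 2 pairs and nothing in the labels they share only a number; with the replicate number as a block, limma called 2048 GR sites (3 in the windows) and 1683 SUMO-2/3 sites (5 in the windows). The cause of these shifts was not tested.

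The sign of the line difference turned at these best ranked or midpoint sites, and no turned value was called. Leaving out 1 library, it ran from −0.35 to 0.060 for GR at TSC22D3 −26.7 kb, from −0.45 to 0.19 at DUSP1 +98.0 kb, from −0.47 to 0.31 at DUSP1 +1.7 kb and from −0.38 to 0.37 at TNFAIP3 −62.0 kb, and from −0.37 to 0.023 for SUMO-2/3 at NFKBIA −14.1 kb. Per own peak length it became 0.24 for GR at TSC22D3, 0.0056 at NFKBIA −13.8 kb and 0.27 at TNFAIP3, and for SUMO-2/3 0.12 at the NFKBIA midpoint and 0.35 at −14.1 kb, where centring by chromosome gave 0.22. GR at TNFAIP3 became 0.22 with limma on tags, 0.20 with edgeR, 0.21 with DESeq2, 0.0048 with a pseudocount of 1 and 0.0017 with reciprocal overlap. The least number of tags in any listed peak was 51.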
